A study of Rattus norvegicus with 15 samples.

Results

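The direct difference between adipogenic and osteogenic culture was examined in rat bone marrow mesenchymal stem cells that received no aspirin. The comparison used 6 of the 15 RNA sequencing libraries of the study, 3 from cells in adipogenic differentiation medium (Adi) and 3 from cells in osteogenic differentiation medium (Ost). Members were chosen by the column labels and by read level alone. Of the 34480 rows of the count table, 32883 carried an Ensembl rat gene identifier, and 14210 of these had enough reads to be tested. Reads were judged over all 15 libraries, so a gene could enter through libraries outside the comparison. With the 6 compared libraries alone, 13481 genes had enough reads. All cells came from the marrow of rats of the outbred Sprague-Dawley strain and were used at passages 3 to 6 after reaching confluence. Another 3 groups of 3 libraries are set beside the comparison where they help to place it: untreated cells (Control), adipogenic medium with aspirin (Adi_ASA) and osteogenic medium with aspirin (Ost_ASA). The labels give no composition of the media, no days in culture and no aspirin dose. They do not say whether the 3 libraries of a group came from different animals, and the spread behind each p-value may therefore be technical.

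Mesenchymal stem cells of the marrow are adherent stromal cells that can be driven towards fat or bone. In the adipogenic programme the transcription factors PPARγ and C/EBPα switch on genes for lipid uptake, lipid synthesis and fat storage in droplets. In the osteogenic programme RUNX2 and osterix direct the deposition of a collagen-rich matrix that then mineralises. The 2 programmes are widely described as alternatives, with regulators of one restraining the other. None of these genes could be located in the table, because it gives identifiers without symbols and 0 of its 34480 rows could be paired with a symbol in the reference used here. The labelled cell types were therefore not checked against their defining markers, and bulk RNA cannot tell fewer cells of a type from less RNA per cell. What follows describes the size and shape of the difference, and 4 identifiers in every library.

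The 2 media gave widely different transcriptomes. Of the 14210 genes, 9532 (67.1%) differed between Adi and Ost (edgeR quasi-likelihood test, Benjamini-Hochberg adjusted p under 0.05), 4674 of them (32.9%) higher in Adi and 4858 (34.2%) higher in Ost. The 3 libraries of one medium did not overlap those of the other for 10005 genes (70.4%). With so many genes past the test, a second test asked which differences exceeded 2-fold (edgeR glmTreat, adjusted p under 0.05). It called 2454 genes (17.3%), with 1306 higher in Adi (9.19%) and 1148 higher in Ost (8.08%). All values for the libraries of one medium lay apart from those of the other for 2452 of these 2454 genes. This follows largely from choosing the genes on the same libraries and is no further support.

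The even balance of directions holds under a scaling that sets most genes level between libraries (TMM). Scaled by library totals alone, 3715 genes were higher in Adi and 6047 in Ost, so that 38.1% of the calls were higher in Adi, against 49.0% with TMM. For the 2-fold test the larger side turned over as well, to 1150 in Adi and 1382 in Ost. The median log2 difference over all genes was -0.157 with library totals and -0.00401 with TMM, and the directions given here are relative to the TMM level. The TMM factors themselves were 0.911 to 0.944 in Adi and 1.03 to 1.04 in Ost.

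Most differences were modest and a minority were very large. The median size over all genes tested was 0.48 on the log2 scale. Of the genes called, 1853 were at least 2-fold higher in Adi and 1621 at least 2-fold higher in Ost. The upper end leaned towards Adi. At least 16-fold differences numbered 336 in Adi and 197 in Ost and at least 64-fold differences 140 and 75, where the largest folds rest on few reads in the lower medium. Among genes past the 2-fold test, those higher in Adi had a median log2 difference of 2.46 (quartiles 1.73 to 4.08) and those higher in Ost a median of -2.27 (quartiles -3.42 to -1.60).

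**Figure D1:**
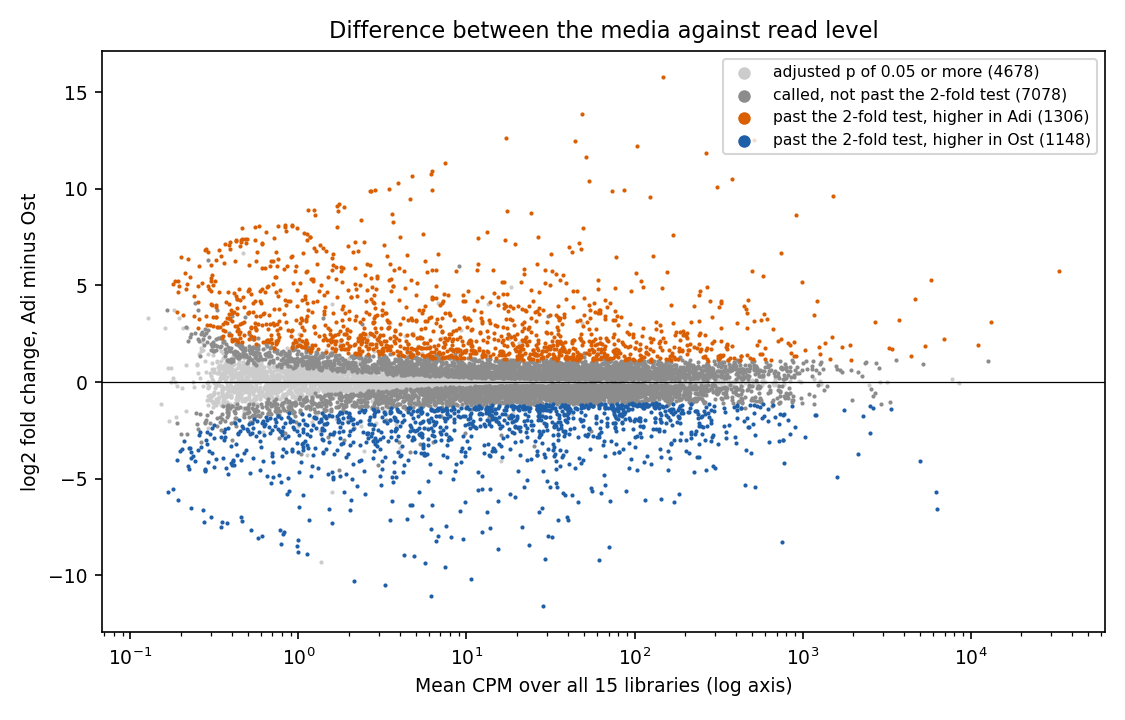
Difference between the media for each of the 14210 genes tested (vertical axis, log2 fold change, Adi minus Ost) against its mean CPM (read count relative to the TMM-scaled library total) over all 15 libraries (horizontal log axis). Orange and blue points mark the 1306 and 1148 genes past the 2-fold test, and they occur at every read level.

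Genes were next divided by read level, the mean CPM over all 15 libraries, which also depends on gene length. The share of genes called rose with read level. It was 47.3% of 1542 genes under 1 CPM and 72.4% of 7059 genes at 10 to 100 CPM. Above that it was 83.5% of 1777 genes at 100 to 1000 CPM and 90.5% of 84 genes at 1000 CPM and over. The median standard error of the log2 difference fell from 0.50 under 1 CPM to 0.079 at 10 to 100 CPM and 0.061 at 100 to 1000 CPM. In the top class it was higher again, at 0.070. The share past the 2-fold test followed another course. It was 24.8% under 1 CPM, 21.5% at 1 to 10 CPM, 12.2% at 10 to 100 CPM, 20.8% at 100 to 1000 CPM and 45.2% at 1000 CPM and over, against 17.3% of all genes. The class mean includes the Adi and Ost libraries, so a gene could reach any class, also the top one, through the medium where it was high. A gene of the lowest class could also enter the test in this way, so the share of that class is not comparable with the others. In the top class, 24 genes past the 2-fold test were higher in Adi and 14 in Ost. The median size of the difference over all its 84 genes was 1.10 on the log2 scale, against 0.52 at 100 to 1000 CPM.

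**Figure D2:**
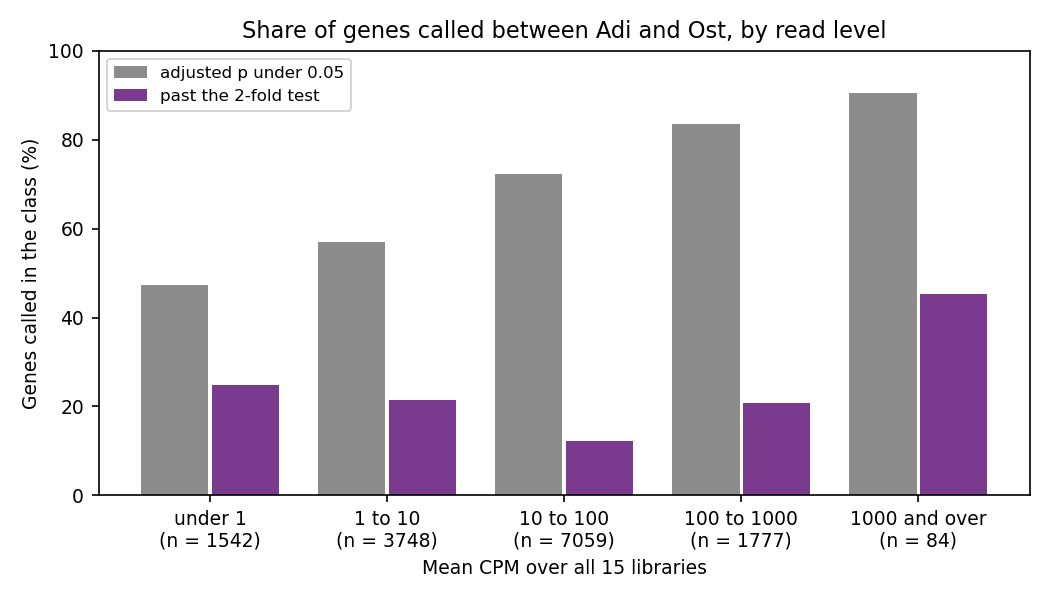
Percentage of genes called between Adi and Ost in 5 classes of mean CPM (n, genes in the class). Grey bars, adjusted p under 0.05, rise from 47.3% to 90.5%, while purple bars, past the 2-fold test, are lowest at 10 to 100 CPM (12.2%) and highest at 1000 CPM and over (45.2%).

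The genes that differed most made up a large part of each transcriptome. The 1306 genes past the 2-fold test and higher in Adi took 28.5%, 28.6% and 29.4% of all reads in Adi replicates 1, 2 and 3, and 5.13%, 5.29% and 5.50% in Ost replicates 1, 2 and 3. The 1148 genes higher in Ost took 22.2%, 22.4% and 22.3% of the reads in Ost and 4.07%, 3.97% and 4.13% in Adi. These values describe lists that were chosen on the same libraries and carry no test. The aspirin libraries were not in that contrast, but they entered the filter, the scaling and the estimate of spread behind it. There the first list took 26.9% ± 0.421 (SD, n = 3) in Adi_ASA and 5.82% ± 0.171 in Ost_ASA. The second took 4.15% ± 0.0101 in Adi_ASA and 22.4% ± 0.129 in Ost_ASA. For both lists the aspirin-treated adipogenic libraries did not overlap the osteogenic ones, and the means differed by many times the SD.

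Untreated cells lay nearer to Adi than to Ost for both lists. The genes higher in Adi took 23.3% ± 0.0143 (SD, n = 3) of the reads in Control, against means of 28.8% in Adi and 5.30% in Ost. The genes higher in Ost took 4.32% ± 0.0303 in Control, against 4.06% in Adi and 22.3% in Ost. Levels per gene lay the same way. For the 1306 genes higher in Adi the median level was 10.8 CPM in Control, 10.7 CPM in Adi and 1.57 CPM in Ost. For the 1148 genes higher in Ost it was 5.76 CPM in Control, 4.72 CPM in Adi and 27.1 CPM in Ost. On the log2 scale Control lay nearer to Adi than to Ost for 2084 of the 2454 genes past the 2-fold test (84.9%), and for 9841 of all 14210 genes (69.3%). For the 1306 genes higher in Adi, Control lay between the media for 633, above both for 619 and below both for 54. For the 1148 genes higher in Ost, it lay between for 604, above both for 31 and below both for 513. Over all 14210 genes these numbers were 5150, 4586 and 4474. Control may also differ from the treated cells in days of culture or in batch, which cannot be told apart from the media here.

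**Figure D3:**
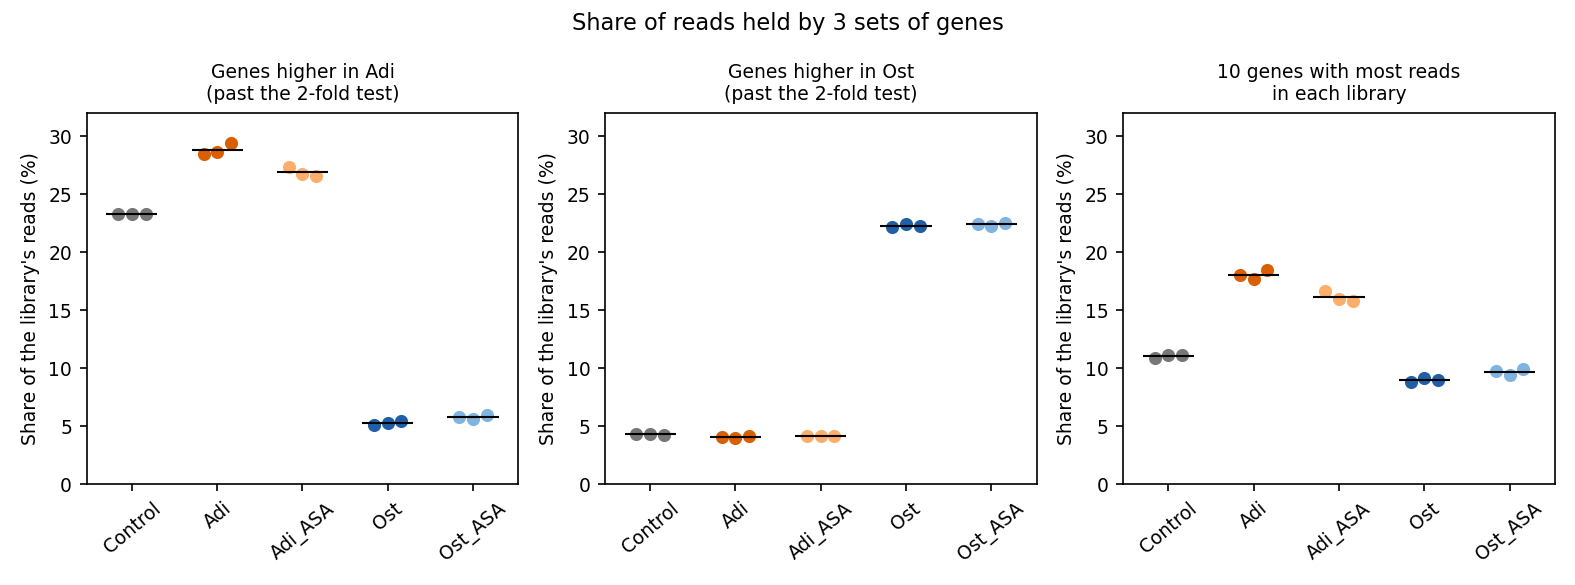
Share of each library's reads (%) held by the 1306 genes past the 2-fold test and higher in Adi (left), the 1148 higher in Ost (middle) and the 10 genes with most reads in that library (right). Points are libraries and bars their means, and Control lies near Adi in the left and middle panels.

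Reads were more concentrated in adipogenic medium. The 10 genes with most reads in a library took 18.0%, 17.7% and 18.4% in Adi replicates 1, 2 and 3, against 8.86%, 9.18% and 9.02% in Ost. The groups did not overlap (exact permutation test, two-sided, p = 0.1, the lowest p possible with 3 against 3). The single gene with most reads took 6.48% to 6.82% of an Adi library and 1.5% to 1.6% of an Ost library, and the first 100 genes took 34.7% to 35.7% and 25.5% to 26.1%. The aspirin libraries lay the same way, with 15.8% to 16.6% for the first 10 genes in Adi_ASA and 9.44% to 9.95% in Ost_ASA. Control was between the media, at 10.9% to 11.1%.

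Slightly more genes were detected in adipogenic medium. At the depth of the smallest library, 18373289 reads, an expected 16963 to 17185 genes had at least 1 read in Adi and 16659 to 16808 in Ost, without overlap (exact permutation test, two-sided, p = 0.1). The unthinned counts were 17120 to 17252 and 16808 to 16986, from 19094319 to 20605435 reads in Adi and 18373289 to 22543679 in Ost. At least 1 CPM was reached by 12396 to 12414 genes in Adi and 12153 to 12210 in Ost. The order turned at higher levels, where 1760 to 1819 genes reached 100 CPM in Adi and 1882 to 1914 in Ost.

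Genes with no read at all in one medium were few. With at least 5 CPM in one medium and 0 reads in all 3 libraries of the other, 14 genes (ENSRNOG00000001821 and ENSRNOG00000001001 among them) were found in Adi alone and 3 (ENSRNOG00000021924 among them) in Ost alone, or 0.0985% and 0.0211% of the genes tested. A count of 0 over 3 libraries allows up to 0.0462 CPM in Ost and 0.0548 CPM in Adi (3 reads, counting error only), so these genes were below detection, not shown to be silent. The 14 genes found in Adi were all at 5 CPM or more in Adi_ASA too, and 12 of them had at most 3 reads in total in Ost_ASA, where the highest had 8. In Control, 4 of the 14 were at 5 CPM or more, 9 had reads below 1 CPM and 1 had none. Of the 3 genes found in Ost, 2 were at 5 CPM or more in Ost_ASA, and none reached 1 CPM in Control. In Adi_ASA, 2 of these 3 had at most 3 reads in total, 1 of them with 0 reads, and the highest had 6.

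A pair of identifiers in each direction is described in full, the largest log2 differences among 1691 genes past the 2-fold test, with at least 5 CPM in the higher medium and no overlap of libraries (820 higher in Adi, 871 in Ost). This order uses fitted values, which depend on the prior count where the lower medium has 0 reads, as for 3 of these 4 identifiers, so it is not an order of measured folds. Lack of overlap and a small adjusted p follow from this choice and are no further support. The functions, positions and sequences of the 4 identifiers are not stated, since no symbol could be paired with them. The gene ENSRNOG00000001821 had 288, 301 and 425 CPM in Adi replicates 1, 2 and 3 and 0 reads in every Ost library. All Adi libraries were high, with replicate 3 above the others, and Ost was empty. The level in Adi was at least 7339-fold higher, taken against 3 reads over the Ost group (edgeR adjusted p = 7.42e-09). It was 0, 0.374 and 0.478 CPM in Control replicates 1, 2 and 3. With aspirin this gene had 430, 416 and 356 CPM in the Adi_ASA libraries. In Ost_ASA it was not absent, with 1, 3 and 4 reads in replicates 1, 2 and 3. The ratio of Adi_ASA to Ost_ASA was 3338, with an exact 95% interval for counting error of 1694 to 7732.

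The other identifier higher in Adi, ENSRNOG00000001001, had 80.1, 84.0 and 108 CPM in Adi replicates 1, 2 and 3 and 0 reads in every Ost library. Replicate 3 of Adi was again the highest. The difference was at least 1968-fold by the same bound (edgeR adjusted p = 1.5e-09). Control held 0, 1 and 3 reads of this gene. With aspirin it had 160, 152 and 143 CPM in the Adi_ASA libraries and 0 reads in all Ost_ASA libraries, at least 3372-fold apart.

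In the other direction, ENSRNOG00000007680 had 74.0, 78.3 and 72.6 CPM in Ost replicates 1, 2 and 3, and 1 read in total in Adi. The Ost libraries lay within a narrow range and the Adi read came from replicate 1. The ratio was 4093, with an exact 95% interval for counting error of 734 to 161685 (edgeR adjusted p = 2.62e-18). Without Adi replicate 1 the log2 difference moved from -11.59 to -13.61, a size that then rests on the prior count. All 3 Control libraries had 0 reads. With aspirin this gene had 68.9, 72.3 and 59.6 CPM in the Ost_ASA libraries and 1 read in total in Adi_ASA.

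The gene ENSRNOG00000021924 had 12.6, 13.7 and 12.2 CPM in Ost replicates 1, 2 and 3. No read of it was counted in any Control, Adi or Adi_ASA library. Reads were counted in both osteogenic groups alone, and it was at least 233-fold higher in Ost than in Adi (edgeR adjusted p = 5.64e-13). In Ost_ASA it had 21.3, 15.5 and 16.4 CPM, all above the 3 Ost libraries, and at least 341-fold above Adi_ASA.

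**Figure D4:**
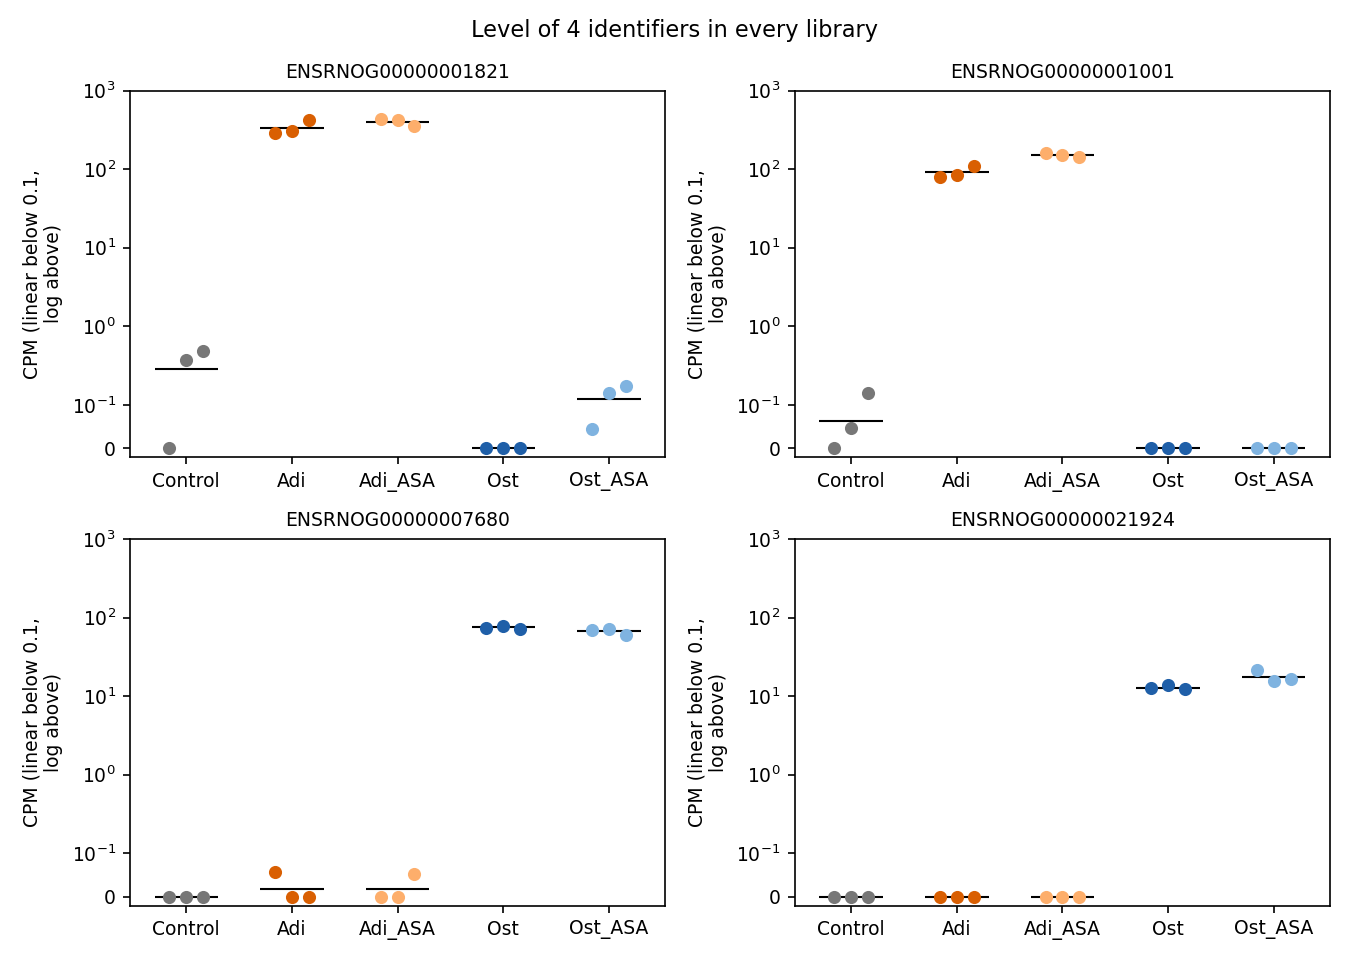
Level in CPM (axis linear below 0.1 and logarithmic above) of 4 identifiers in all 15 libraries. Points are libraries and bars group means: the upper 2 genes are high in both adipogenic groups and the lower 2 in both osteogenic groups, with 0 reads or nearly so elsewhere.

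Libraries of one medium differed little from each other beside the distance between the media. Over the 12668 genes whose mean reached 1 CPM, the median SD of log2 CPM was 0.099 in Adi and 0.093 in Ost. The root mean square distance of a library from the mean of the other 2 of its medium was 0.322 to 0.338 for the 6 libraries, and that between the media was 1.32. No library of either medium stood apart by this measure. The SD was larger in Adi for 6621 of the 12668 genes (52.3%). For the 999 genes past the 2-fold test and higher in Ost, the median SD was 0.082 in Ost and 0.162 in Adi. For the 1072 higher in Adi it was 0.134 in Adi and 0.160 in Ost. In both lists the larger SD was in the medium where the genes were chosen to be low, so spread was not separated from read level. The 2 lists also hold different genes at different read levels, and a difference in spread between the media was not tested.

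The same media were compared in separate libraries that had both received aspirin. Between Adi_ASA and Ost_ASA, 9430 genes differed (66.4%) and 2459 passed the 2-fold test (17.3%). Of the genes past the 2-fold test without aspirin, 2100 passed it in the same direction with aspirin, which is 85.6% of the first list and 85.4% of the second, and 0 passed it in opposite directions. Among all 2454, the sign was shared by 2445. Across the 14210 genes the 2 log2 differences had a Pearson correlation of 0.93 and a Spearman correlation of 0.90. Genes are not independent replicates, and both contrasts use 1 estimate of spread and 1 set of scaling factors. The medium difference itself changed with aspirin for 428 genes (3.01%, edgeR test of the interaction, adjusted p under 0.05). These included 51 of the 354 genes past the 2-fold test in the libraries without aspirin alone and 46 of the 359 past it in those with aspirin alone. Both of these lists were chosen by a disagreement between the contrasts, which the interaction also measures. A share above that of all genes follows from the choice and is no further support.

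**Figure D5:**
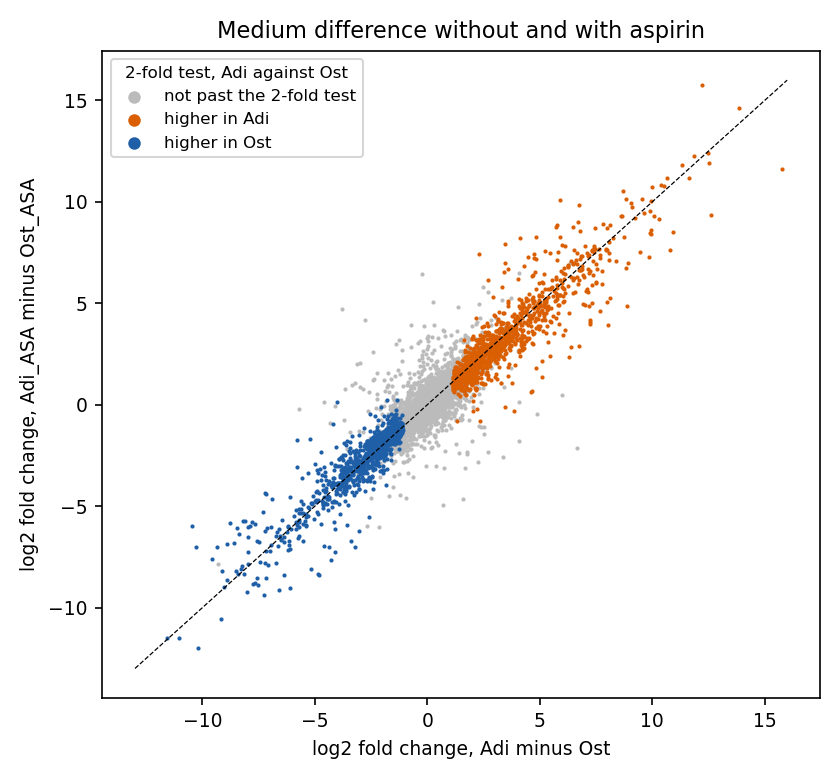
Log2 difference between the media without aspirin (horizontal) and with aspirin (vertical) for each of the 14210 genes, with the line of equal values dashed. Of the coloured points, past the 2-fold test without aspirin, 2445 of 2454 have the same sign on both axes.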

How the data were processed

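The deposited table holds raw read counts per gene, unnormalised whole numbers, for 15 libraries. HISAT2 2.0.4, HTSeq 0.9.1, DESeq 1.18.0 and Rnor_6.0 are named per the submitters' processing notes; their roles, strand handling and annotation are not stated there, so values of overlapping or near-identical genes are uncertain. The tests used edgeR 4.0.16 (R 4.3.3): filterByExpr over the 5 groups (15543 rows kept), TMM, 1 robust quasi-likelihood model of all 15 libraries, Benjamini-Hochberg over all rows kept, threshold 0.05. Ensembl rows are reported. CPM uses TMM-scaled totals. Standard errors are the log2 difference divided by the square root of F. SD of log2 CPM uses a prior count of 2.

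On simulated counts with 50 genes changed at each fold (15236 genes run, Adi against Ost), the test called 26 at 1.5-fold, 43 at 2-fold and 49 at 4-fold. It made 7 false calls among 15036 unchanged genes. The 2-fold test called 46 at 4-fold and 0 of those unchanged. The changed genes all had a mean of at least 1 CPM and the rest were level. Genes at lower levels and a shift of most genes were therefore not covered. Every pair of libraries in a group differed by more than counting error (chi-square over its degrees of freedom 5.41 to 13.5, from genes reaching 10 reads in the pair).

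The genes named were to include 26 core genes, members of 44 functional lists and the largest differences with a symbol. No symbol could be paired (reference assembly GRCr8, 47357 genes), so the core genes and lists were not analysed here and the first 2 identifiers in each direction are named. The comparison and the lists were chosen with earlier results of these data known. The read levels, read shares, detection counts and Control levels were chosen after seeing the files. DESeq2 1.42.0, other scalings, filters and sets of libraries were tried as alternatives.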

Additional observations from a re-analysis of the deposited data

Results flagged for a closer look

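For 428 Ensembl rows the difference between the media was not the same with and without aspirin (edgeR test of the interaction, adjusted p under 0.05, 3 libraries in each of 4 groups). In addition, rows without an Ensembl identifier lay outside the comparison above, and 353 of the 1333 that had enough reads passed the 2-fold test between Adi and Ost (26.5%, edgeR glmTreat), 203 higher in Adi and 150 higher in Ost, against 17.3% of the Ensembl rows. At an adjusted p under 0.05, 804 of them differed (60.3%), against 67.1% of the Ensembl rows. Whether these shares differ was not tested. These rows together held 0.664% to 0.725% of the reads in Adi libraries, 0.673% to 0.708% in Ost libraries and 0.821% to 0.876% in Control libraries. The labels do not say what these rows are.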

How the results depend on the processing

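Under 14 alternatives (RLE factors, library totals, no filter, a filter of 1 CPM in 3 libraries, DESeq2, no robust estimation, a replicate block, the 6 libraries compared alone, and each library left out) the number of genes called between Adi and Ost ranged from 9038 to 9762, that past the 2-fold test from 2011 (DESeq2) to 2568 (no filter), and that between Adi_ASA and Ost_ASA from 8951 to 9560, each within 1.5 times the value reported. All 4 identifiers kept their direction and call under all 14, but the size of p depended on the model. For ENSRNOG00000001821 the adjusted p ran from 1.7e-35 (DESeq2) to 0.00158 (edgeR, the 6 libraries compared alone). For ENSRNOG00000001001 it ran from 8.43e-29 (DESeq2) to 4.82e-05 (edgeR, the same 6 libraries). Without 1 library at a time, the counts were 9038 to 9190 and, past 2-fold, 2345 to 2398. With the replicate block, 9436 genes were called between Adi and Ost and 2439 past 2-fold. Deviations of same-numbered Adi and Ost libraries had correlations of 0.00602 to 0.0272, against -0.0758 to 0.0530 for libraries of different number. With 3 such pairs this cannot show whether same-numbered libraries share an origin, which the labels do not give. The block changed no call of the named identifiers. Depth limits the 1542 genes under 1 CPM most, and a fold against 0 reads is a bound only.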
